A study of Mus musculus with 54 samples.

Results

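Genes of the neuronal cytoskeleton were followed in mice that lack the miR-183/96/182 cluster (miR-183C) in sensory neurons or in myeloid cells. The 10 members, of 35976 genes in the count table, were chosen by name as structural genes of sensory axons: the neurofilament triplet Nefl, Nefm and Nefh, the further intermediate filament genes Ina and Prph, the neuronal tubulin gene Tubb3, the stathmin genes Stmn2 and Stmn3, and the microtubule-associated protein genes Mapt and Map1b. RNA was read in the trigeminal ganglion (TG), which holds the cell bodies of the corneal sensory nerves (CSN), and in the cornea, which holds their axon endings, and also in sorted myeloid cells. Each tissue had 3 libraries of SNS-CKO mice and 4 of their WT littermates, and 5 of MS-CKO mice and 5 of theirs, all males 8 to 12 weeks old.

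SNS-CKO mice were Nav1.8-Cre(+/−);miR-183C f/f, and their WT littermates also carried Nav1.8-Cre(+/−), with miR-183C +/+. Both carried R26 LSL-RFP(+/+) and Csf1r-EGFP(+/+). MS-CKO mice carried LysM-Cre(+/−) with miR-183C f/f, and their WT littermates were LysM-Cre(−/−) with the same floxed alleles. Both carried Csf1r-EGFP(+/+) as well. Nav1.8 is the product of Scn10a, so Cre is made in most nociceptors and in few large-fibre neurons, while LysM-Cre lies in Lyz2 and acts in myeloid cells. Pools of sorted Csf1r-EGFP+ corneal resident myeloid cells (CRMCs) and of spleen myeloid cells came from MS-CKO, MS-strain WT, KO (miR-183C GT/GT gene trap) and KO-strain WT mice, with 1 library each.

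Neurofilaments are heteropolymers that fill large axons and set their calibre, with the light chain Nefl as the core and the medium and heavy chains as side-arm bearing partners. Peripherin (Prph) is the intermediate filament typical of small sensory fibres and autonomic neurons, and α-internexin (Ina) is a filament protein better known from the central nervous system. Microtubules of the axon are built from tubulins such as β-III tubulin (Tubb3), the usual stain for corneal nerves, are bundled by tau (Mapt) and by MAP1B, and are destabilised by stathmins, of which Stmn2 is needed for axon regrowth and Stmn3 is its close neuronal relative.

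The values are counts of 3′ ends of mRNA, given here as CPM, counts scaled to a library total of 1000000. A 3′ tag is read once per transcript, so CPM does not grow with gene length. Levels are set side by side between genes on that basis only, and other differences in counting between genes were not examined. TG libraries held 2934793 to 5387042 counts and cornea libraries 2366126 to 6741290. Mirc35hg, a long RNA spanning the miR-183C genes, was at 50.7, 49.3 and 52.6 CPM in the TG of SNS-CKO mice, against 0.26 to 3.56 CPM in SNS-strain WT mice, and at 4.02 to 12.0 CPM in MS-CKO mice, against 1.20 to 3.90 CPM in MS-strain WT mice. Lyz2, where LysM-Cre lies, was at 0.75 to 2.36 CPM in MS-CKO TG, against 2.34 to 7.24 CPM in MS-strain WT TG. In the SNS strain it was at 2.34 to 6.05 CPM in SNS-CKO TG and 1.48 to 6.17 CPM in SNS-strain WT TG. The table names SNS libraries NACC, a reading of the column names that the titles do not spell out. All SNS libraries, and in each tissue MS-CKO 4, MS-CKO 5 and MS-strain WT 5, have B2 at the end of the column name, and the other 7 MS libraries of each tissue do not. B2 is not explained by the sources used here. It also went with traces of the other tissue: Krt12, the keratin of corneal epithelium, was at 15.3 to 25.1 CPM in the 10 TG libraries with B2 and at 0 to 0.90 CPM in the 7 without. Finally, 11 MS columns stand in the table a second time under KO-strain names, so the strain of these libraries cannot be told from the names alone. In 2 of the 11 the genotype names also conflict: a copy named as KO TG equals MS-strain WT cornea 4, with Krt12 at 23597 CPM, the level of a cornea, and a copy named as WT TG equals MS-CKO TG 3. The copies were not used.

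The miRNAs of the cluster lie together on chromosome 6 and have nearly the same seed, the bases 2 to 8 that pair with target mRNAs. They are shown because miR-183C is what the CKO mice lack. The mature sequences (RefSeq, GRCm38.p6, minus strand, chr6:30165962-30165986, chr6:30169506-30169528 and chr6:30169711-30169732) follow with the seed in capitals.
miR-182-5p: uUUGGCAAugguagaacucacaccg
miR-96-5p: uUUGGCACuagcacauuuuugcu
miR-183-5p: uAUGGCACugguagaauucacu

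Of the 10 members 6 held at least 1 match to a seed site in an annotated 3′ UTR (TTGCCAA for miR-182-5p, GTGCCAA for miR-96-5p, GTGCCAT for miR-183-5p, sense strand, with or without an A after it), against 5063 of 20983 genes with a 3′ UTR (24.1%). These were Nefl, Nefm, Ina, Stmn2, Mapt and Map1b, while Nefh, Prph, Tubb3 and Stmn3 had none in the annotated UTRs. The members' sites are shown with the match in capitals (mm10, GENCODE M21), and for the genes with the most sites, 1 site each. The match is a description of the letters, not of binding.
Nefl, miR-183-5p (chr14:68089047-68089076, plus strand): ttcaatcctgtGTGCCATaataaaatattg
Nefm, miR-182-5p (chr14:68119486-68119515, minus strand): tgaagtacctgTTGCCAAgagctagctgtt
Ina, miR-96-5p (chr19:47025062-47025091, plus strand): gtctgcctcatGTGCCAAatcaggctttgc
Stmn2, miR-96-5p (chr3:8561410-8561439, plus strand): gcagggcatttGTGCCAAgtataagaatca
Stmn2, miR-183-5p (chr3:8561162-8561191, plus strand): cttatctgtggGTGCCATgggtgatgatgt
Mapt, miR-96-5p (chr11:104329718-104329747, plus strand): agccaagtcagGTGCCAAtgtcttggcatc
Map1b, miR-182-5p (chr13:99423225-99423254, minus strand): ttctagccttcTTGCCAAatccagacctct

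The sites of Nefl, Ina and Map1b shown here are followed by an A and so are 8mers, and the others are 7mer-m8 sites. Mapt had 4 sites in a 3′ UTR of 3903 bases, the only member with sites for all 3 miRNAs. The Nefm site lies in the 3′ UTR of another isoform than its longest, and 2 further miR-182-5p matches of Map1b also lie in another isoform.

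In the TG the members were among the abundant mRNAs and together took 3.28% to 4.28% of all counts of a library. Map1b (chr13:99421446-99516540, minus strand) was the highest, with 11129 to 15662 CPM over the 17 libraries. Nefm (chr14:68082590-68124846, minus strand) followed with 6898 to 8753 CPM, Nefl (chr14:68083863-68089095, plus strand) with 5066 to 8864 CPM and Nefh (chr11:4938754-4948064, minus strand) with 3110 to 4799 CPM. Below them stood Stmn2 (chr3:8509360-8561606, plus strand) at 1468 to 2025 CPM, Tubb3 (chr8:123411424-123422015, plus strand) at 1311 to 1868 CPM and Stmn3 (chr2:181306459-181314500, minus strand) at 1022 to 1452 CPM. Mapt (chr11:104231390-104332090, plus strand) was at 775 to 1022 CPM and Prph (chr15:99055174-99058978, plus strand) at 704 to 986 CPM.

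Ina (chr19:47014698-47025327, plus strand) was far below the rest, at 13.7 to 35.5 CPM. The order was not fixed between all neighbours. Nefm was above Nefl in 14 of 17 libraries, Stmn2 above Tubb3 in 10 of 17 and Mapt above Prph in 10 of 17, while Map1b over Nefm, Nefl over Nefh, Nefh over Stmn2, Stmn3 over Mapt and Prph over Ina were apart in range, Stmn3 and Mapt only just. Tubb3 was above Stmn3 in 17 of 17 libraries, though their ranges overlapped. Nefl and Nefm are neighbours on opposite strands and share 1108 annotated exon bases, and Ina shares 456 with Nt5c2 on the opposite strand. It is not stated whether counting used the strand, so the counts of such a pair, and their order and ratio, could be affected.

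**Figure D1:**
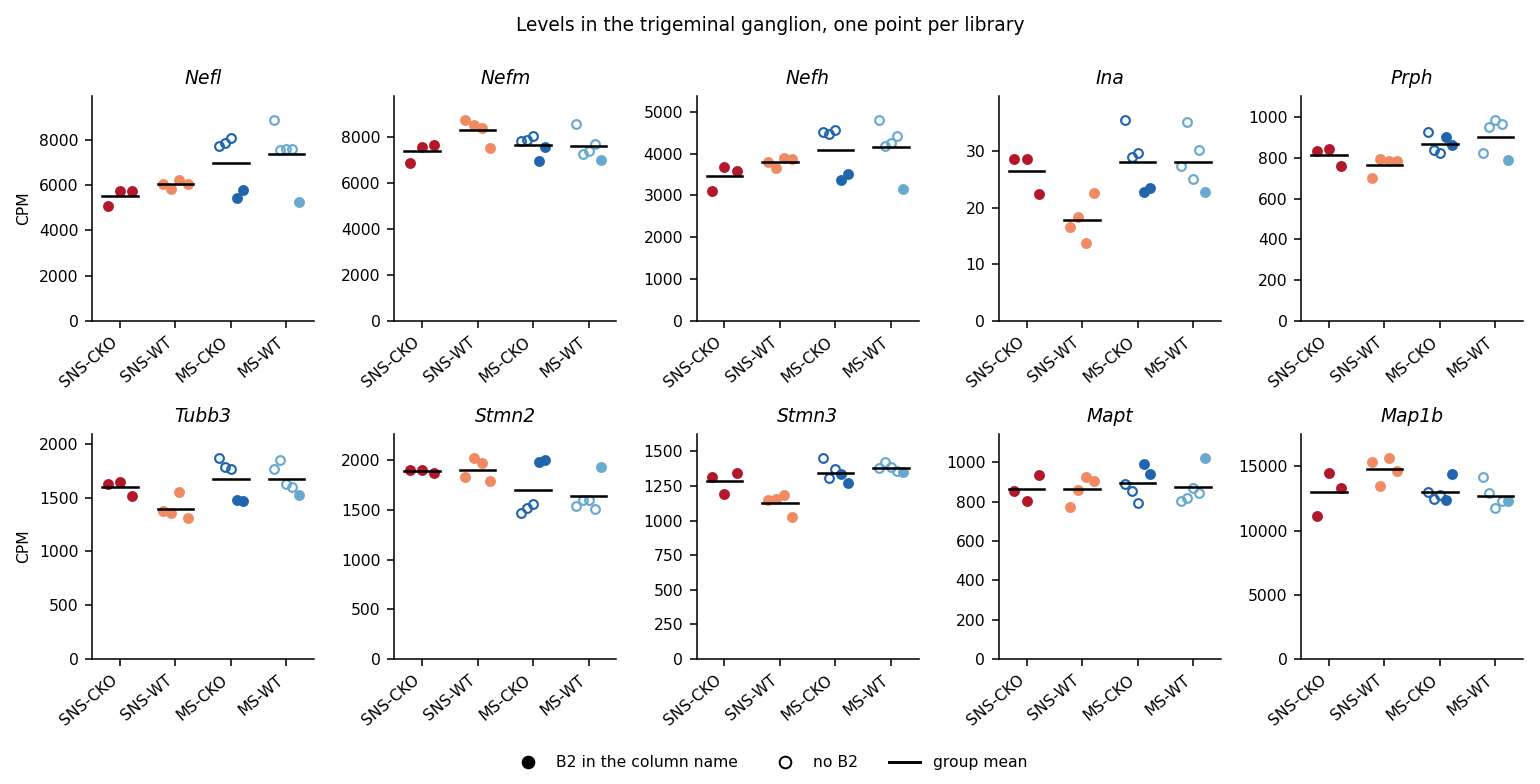
CPM of each member in the TG, 1 point per library, for CKO and WT mice of the SNS strain and then of the MS strain, with filled points for libraries with B2 in the column name and a line at the group mean. Within the MS strain the filled points of Nefl lie at 5267 to 5788 CPM and the open ones at 7525 to 8864 CPM.

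The comparison of SNS-CKO with SNS-strain WT mice asks whether loss of miR-183C in nociceptors moved the transcripts of the axon. No member passed the test there: 0 of 10 had an adjusted p under 0.05 by edgeR's quasi-likelihood F test, with 5 of 12769 genes past it (0.0392%). The fitted changes were small, negative for the triplet and Map1b and positive for Ina, Tubb3 and Stmn3. At an unadjusted p under 0.05, 3 members were higher, where 442 of all genes were (3.46%), and 2 were lower, where 410 were (3.21%). DESeq2 called 0 of the 10. The column names allow another reading of the strains, with MS-named libraries without B2 as SNS. Under it the log2 changes of Nefm and Nefh were 0.04 each, and those of Nefl, Map1b and Stmn3 were within 0.01 of 0. In those TG libraries Lyz2 was at 0.75 to 1.07 CPM in CKO mice, against 2.34 to 7.24 CPM in WT mice. Mirc35hg was at 4.02 to 12.0 CPM in their CKO mice, against 49.3 to 52.6 CPM in the NACC CKO libraries. Which reading holds was not tested.

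Nefl was at 5066, 5730 and 5749 CPM in SNS-CKO mice, against 6055, 5816, 6198 and 6038 CPM in SNS-strain WT mice. The groups did not overlap, but the nearest values are close, and the log2 change of −0.13 (SE 0.07) had an unadjusted p of 0.0727 and an adjusted p of 0.765 in edgeR. Nefm was at 6898, 7597 and 7659 CPM in SNS-CKO mice, against 8753, 8517, 8395 and 7540 CPM in SNS-strain WT mice. These groups overlapped by the lowest WT library, and Nefm fell short of the threshold with a log2 change of −0.17 (SE 0.07, unadjusted p 0.0216, edgeR adjusted p 0.683). Nefh, the heavy chain, was at 3110, 3688 and 3591 CPM in SNS-CKO mice, against 3806, 3646, 3883 and 3862 CPM in SNS-strain WT mice. Its log2 change was −0.13 (SE 0.07, unadjusted p 0.0770, edgeR adjusted p 0.778), and SNS-CKO 1 was the lowest of its group for Nefl, Nefm, Nefh and Map1b alike.

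Ina had the largest step, with 28.5, 28.5 and 22.4 CPM in SNS-CKO mice, against 16.7, 18.4, 13.7 and 22.5 CPM in SNS-strain WT mice. The lowest SNS-CKO value lay just under the highest WT value. The log2 change of Ina was 0.58 (SE 0.20, unadjusted p 0.00680, edgeR adjusted p 0.574). Prph, the small-fibre filament gene, was at 835, 844 and 759 CPM in SNS-CKO mice, against 704, 795, 786 and 784 CPM in SNS-strain WT mice, and these ranges overlapped.

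Tubb3 was at 1629, 1641 and 1513 CPM in SNS-CKO mice, against 1372, 1356, 1551 and 1311 CPM in SNS-strain WT mice, a log2 change of 0.19 (SE 0.08, unadjusted p 0.0209, edgeR adjusted p 0.682). Stmn3 was at 1318, 1194 and 1346 CPM in SNS-CKO mice, against 1152, 1154, 1185 and 1022 CPM in SNS-strain WT mice. Its groups did not overlap, with a log2 change of 0.19 (SE 0.08, unadjusted p 0.0224, edgeR adjusted p 0.683). Nefl and Stmn3 were thus the 2 members whose libraries did not overlap between the groups, where 931 of 12769 genes did not (7.29%). Map1b was at 11129, 14455 and 13361 CPM in SNS-CKO mice, against 15371, 13514, 15662 and 14663 CPM in SNS-strain WT mice, with a log2 change of −0.19 (SE 0.08, unadjusted p 0.0203, edgeR adjusted p 0.682). Stmn2 at 1872 to 1904 CPM in SNS-CKO mice, against 1791 to 2025 CPM in SNS-strain WT mice, and Mapt at 805 to 937 CPM in SNS-CKO mice, against 775 to 927 CPM in SNS-strain WT mice, had overlapping ranges. The 6 members with miR-183C sites had log2 changes of both signs, and none passed the threshold. Ina was at 0.58, Nefl, Nefm and Map1b at −0.13 to −0.19, Stmn2 at −0.01 and Mapt, with the most sites, at −0.003.

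Genes of the same machinery gave no calls either. Of 19 other tubulin, microtubule-associated and stathmin genes, 0 passed in SNS-CKO against SNS-strain WT TG, and their median log2 change was 0.02, beside a median near 0 over all genes. Of 12 axonal transport motor genes 0 passed and 9 had a negative log2 change, with Kif3a, a subunit of kinesin-2, at 365 ± 39.6 CPM in SNS-CKO mice and 415 ± 10.6 CPM in SNS-strain WT mice (SD). Of 14 membrane skeleton, linker and other intermediate filament genes 0 passed and 13 were negative, with Ank2, the ankyrin-B gene, at 934 ± 103 CPM in SNS-CKO mice and 1066 ± 55.9 CPM in SNS-strain WT mice. Their median log2 changes were −0.06 and −0.08. Of 12 pan-neuronal genes 0 passed (median −0.04).

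Markers of the fibres that the members serve were likewise below the threshold. Of 12 large-fibre markers 0 passed, with 5 positive and 7 negative changes (median −0.09) and Scn1a, a sodium channel gene, at 201 ± 2.80 CPM in SNS-CKO mice and 243 ± 4.56 CPM in SNS-strain WT mice (log2 change −0.27, SE 0.08, edgeR adjusted p 0.428). Of 12 small-fibre markers 0 passed and 11 were negative (median −0.18), with Calca, the CGRP gene of peptidergic nociceptors, at 527 ± 8.39 CPM in SNS-CKO mice and 616 ± 87.7 CPM in SNS-strain WT mice. In bulk tissue, fewer cells of a type and less RNA per cell cannot be told apart. Of the other cell types, the 10 Schwann and satellite glia markers summed to 20617 to 25387 CPM in SNS-CKO mice and 21617 to 24018 CPM in SNS-strain WT mice. The 5 erythrocyte markers summed to 859 to 1404 CPM in SNS-CKO mice and 1144 to 3370 CPM in SNS-strain WT mice, and 1 of them, Hbb-bs, was lower (log2 change −1.11, SE 0.20, edgeR adjusted p 0.0149). Whether blood content bears on the members was not tested.

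In the MS strain no member passed either: 0 of 10 passed and 0 of 12480 genes did (0%), with 372 genes (2.98%) and 0 members at an unadjusted p under 0.05 in edgeR and 0 genes called by DESeq2. Nefl had 7735, 7834, 8076, 5443 and 5788 CPM in MS-CKO mice, against 8864, 7525, 7597, 7572 and 5267 CPM in MS-strain WT mice. In both groups the libraries with B2 were the low ones, MS-CKO 4, MS-CKO 5 and MS-strain WT 5, so the spread within each group was far wider than in the SNS strain. Nefm averaged 7670 ± 433 CPM in MS-CKO mice and 7603 ± 596 CPM in MS-strain WT mice (SD, n = 5 each). Map1b averaged 13023 ± 818 CPM in MS-CKO mice and 12708 ± 931 CPM in MS-strain WT mice.

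The genotype effects of the SNS and MS strains were set against each other in 1 fit of all 17 TG libraries. Here 0 of 10 members passed, with 1 of 13728 genes past the threshold (0.00728%). At an unadjusted p under 0.05 there were 3 members, with 572 of all genes (4.17%). These were Ina (log2 difference of changes 0.57, SE 0.26, p 0.0361), Stmn3 (0.22, SE 0.10, p 0.0386) and Map1b (−0.22, SE 0.10, p 0.0390), all with an edgeR adjusted p of 0.998.

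**Figure D2:**
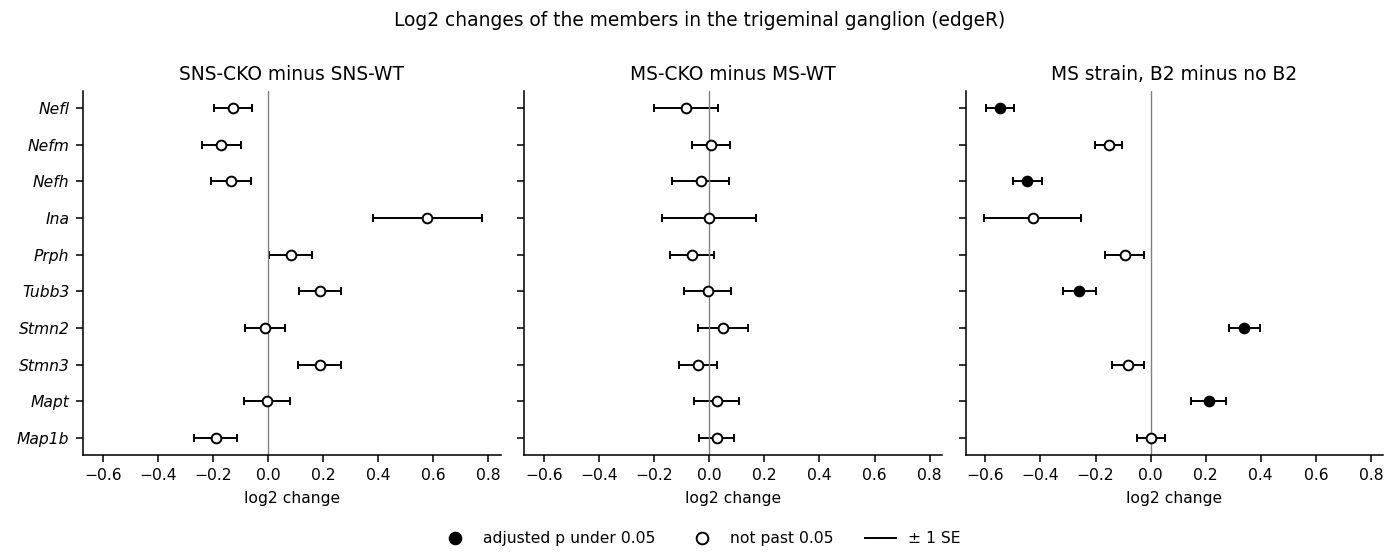
Log2 changes of the 10 members in the TG with ± 1 SE, for SNS-CKO minus SNS-strain WT, MS-CKO minus MS-strain WT, and MS-strain libraries with B2 minus those without (genotype as a covariate). No filled point (adjusted p under 0.05) is seen in the genotype panels, and 5 are seen in the B2 panel, with Nefl at −0.55 and Stmn2 at 0.34.

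Between the strains, WT mice differed in 1 member. Stmn3 was lower in SNS-strain WT TG, at 1022 to 1185 CPM, against 1351 to 1420 CPM in MS-strain WT TG, with no overlap (log2 change −0.32, SE 0.08, edgeR adjusted p 0.0265). Among all 12733 genes 163 were called lower (1.28%), and 274 were lower without overlap, Ina and Stmn3 among them. Ina was at 13.7 to 22.5 CPM in SNS-strain WT TG and 22.8 to 35.1 CPM in MS-strain WT TG (log2 change −0.69, SE 0.18, edgeR adjusted p 0.0506), and Tubb3 (−0.29, SE 0.08, adjusted p 0.0603) and Nefl (−0.32, SE 0.10, adjusted p 0.0873) also fell short. All 4 SNS-strain WT libraries have B2 and 4 of 5 MS-strain WT libraries do not, so the strain and B2 are largely confounded. With B2 as a covariate 0 members passed. Without MS-strain WT 5, the only MS-strain WT library with B2, 7 members passed. Over the 9 fits that each left out 1 library, 0 to 7 members and 44 to 1129 of all genes were called. The Stmn3 call was lost in 6 of these 9 fits (edgeR adjusted p up to 0.0995).

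The B2 libraries could be set against the others within the MS strain, 3 against 7, with genotype as a covariate (a comparison chosen after the data were seen). Of the 10 members 2 were higher, where 460 of 13181 genes were (3.49%), and 3 were lower, where 472 were (3.58%). Nefl was at 5443, 5788 and 5267 CPM in the 3 libraries with B2, against 7525 to 8864 CPM in the 7 without (log2 change −0.55, SE 0.05, edgeR adjusted p 8.41e-09). Nefh was at 3376, 3519 and 3158 CPM with B2, against 4190 to 4799 CPM without (log2 change −0.45, SE 0.05, adjusted p 4.10e-07). Tubb3 was at 1470 to 1529 CPM with B2, against 1596 to 1868 CPM without (log2 change −0.26, SE 0.06, adjusted p 0.00607). None of these ranges overlapped. Over all 13181 genes, 598 were lower and 780 higher in libraries with B2 without overlap.

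Stmn2 went the other way, at 1937 to 2005 CPM in libraries with B2, against 1468 to 1601 CPM in those without (log2 change 0.34, SE 0.06, edgeR adjusted p 0.000116). Mapt was at 943 to 1022 CPM with B2 and 792 to 892 CPM without (log2 change 0.21, SE 0.06, adjusted p 0.0382), a call that was lost in 6 of the 10 fits without 1 library. Ina, at 22.8 to 23.5 CPM with B2 and 25.001 to 35.5 CPM without, did not pass (log2 change −0.43, SE 0.18, adjusted p 0.153). Nefm, Prph, Stmn3 and Map1b did not pass either.

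Ratios within a library do not depend on the library total. They describe the same counts again and are no further check on the calls by B2. Nefl over Nefm was 0.749 to 0.781 in the MS-strain TG libraries with B2 and 0.983 to 1.03 in those without. In the SNS strain, where every library has B2, it was 0.734 to 0.754 in SNS-CKO mice and 0.683 to 0.801 in SNS-strain WT mice. Across both strains the 10 libraries with B2 lay at 0.683 to 0.801 and the 7 without at 0.983 to 1.03. Nefh over Nefm was 0.449 to 0.484 with B2 and 0.560 to 0.576 without in the MS strain. Tubb3 over Stmn2, a member called lower with B2 over one called higher, was 0.733 to 0.789 with B2 and 1.02 to 1.27 without. Nefh over Nefl went the other way in the MS strain, at 0.600 to 0.620 with B2 and 0.541 to 0.584 without. Within the SNS strain, Tubb3 over Stmn2 was 0.808 to 0.863 in SNS-CKO mice and 0.670 to 0.785 in SNS-strain WT mice, without overlap. This was seen in the data and not tested, and no share over other gene pairs is given. The other ratios overlapped between these groups. Nefh over Nefm was 0.451 to 0.485 in SNS-CKO mice and 0.428 to 0.512 in SNS-strain WT mice. Nefh over Nefl was 0.614 to 0.644 in SNS-CKO mice and 0.627 to 0.640 in SNS-strain WT mice.

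**Figure D3:**
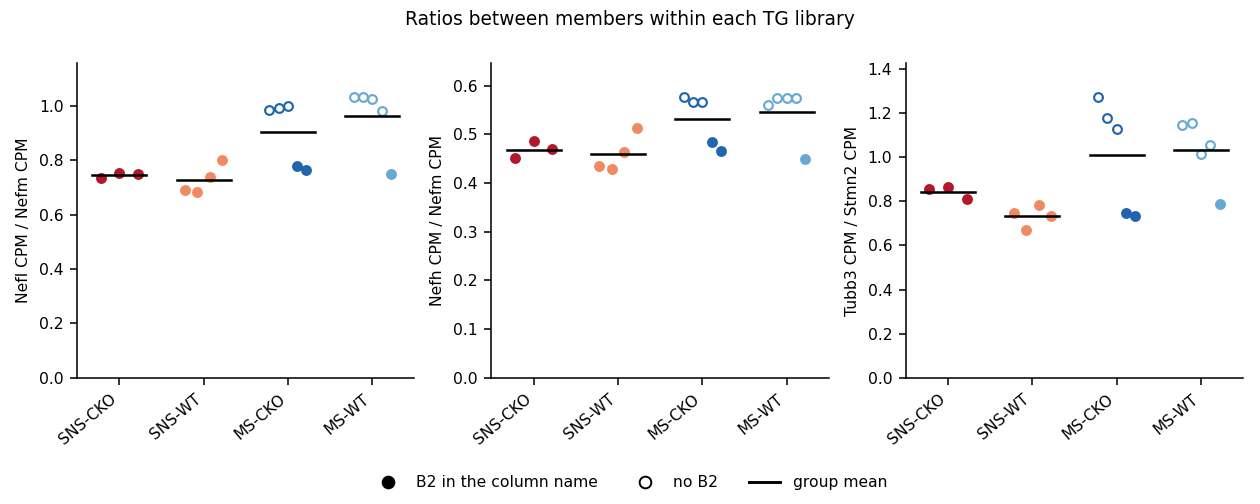
Ratios of Nefl to Nefm, Nefh to Nefm and Tubb3 to Stmn2 (CPM over CPM) in each TG library of the 4 groups, with filled points for B2 and a line at the group mean. The open points of the MS strain lie above all filled points in each panel, for Nefl over Nefm at 0.983 to 1.03.

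Other cytoskeletal and cell type genes differed by B2 too. Of 19 other tubulin, microtubule-associated and stathmin genes 4 were higher and 4 lower in MS-strain TG libraries with B2, such as Tubb2b (log2 change −0.78, SE 0.10), Tuba1a (−0.31, SE 0.06) and Tuba4a (0.52, SE 0.09), all genes of tubulin subunits. Of 12 axonal transport motor genes 2 were higher and 1 lower. Of 10 glial markers 4 were higher and 1 lower. The glial sum was 19770 to 23739 CPM with B2 and 15950 to 21426 CPM without, and the sum of 5 corneal epithelium markers was 49.4 to 57.1 CPM with B2 and 0.53 to 3.90 CPM without. Their part in the members' differences was not tested.

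The libraries fall into 2 sets by B2, so likeness to the triplet is given within each, as the correlation of log2(CPM + 0.5) with the summed CPM of Nefl, Nefm and Nefh after removal of group means. It is a description over 10 libraries with B2 and 7 without. MS-strain WT 5 is alone in its group among those with B2, so removal of the group mean leaves it at 0. It adds nothing to r. Map1b followed the triplet in both sets (r = 0.88 and 0.77), whereas Tubb3 did not in either (0.08 and 0.09) and Prph ran against it (−0.49 and −0.87). The 5 genes outside the list with the highest correlation over all 17 libraries were Csnk1e, Kifap3, Chmp1a, Atp6ap1 and Prkacb. That choice mixes the sets, since the MS groups hold libraries with and without B2. By r within the libraries with B2 these genes ranked 322, 316, 20, 4929 and 193, in the same order. Within the sets with and without B2, r was 0.69 and 0.85 for Csnk1e, a casein kinase gene, 0.69 and 0.74 for Kifap3, the kinesin-2 associated protein gene, 0.91 and 0.67 for Chmp1a, an ESCRT-III gene, −0.22 and 0.81 for Atp6ap1, a V-ATPase accessory gene, and 0.76 and 0.61 for Prkacb, a protein kinase A subunit gene.

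In the cornea the members were traces. All 10 were higher in TG than in cornea in both WT groups, in edgeR with adjusted p below the threshold, where 5449 of 13196 genes were higher in SNS-strain WT mice (41.3%) and 5408 of 13401 in MS-strain WT mice (40.4%). In SNS-strain WT mice the log2 change of TG over cornea was 10.13 (SE 0.14) for Nefl, 9.77 (SE 0.15) for Nefm, 10.11 (SE 0.15) for Nefh, 9.03 (SE 0.16) for Prph, 9.90 (SE 0.19) for Tubb3, 10.13 (SE 0.16) for Stmn2 and 8.61 (SE 0.15) for Stmn3. For Map1b it was 8.67 (SE 0.11), and Mapt at 6.97 (SE 0.16) was the least far apart of the 9 members with more than 3 corneal counts there. Ina had 1 count in the 4 corneas. All SNS-strain WT libraries have B2, and most MS-strain WT libraries lack it. In MS-strain WT mice the log2 change was 11.67 (SE 0.50) for Nefl, 10.36 (SE 0.42) for Nefm and 12.12 (SE 0.45) for Nefh. It was 14.97 (SE 0.28) for Prph, 13.81 (SE 0.29) for Tubb3, 11.62 (SE 0.38) for Stmn2 and 11.38 (SE 0.32) for Stmn3. For Map1b it was 9.17 (SE 0.28), for Mapt 6.78 (SE 0.15) and for Ina 5.56 (SE 0.36).

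Corneal levels also went with B2. All SNS corneas have B2 and only 3 MS corneas do, so B2 and strain are largely confounded in these shares. The mean CPM of Nefl in cornea was 0.0811% of its mean in TG over the 10 libraries with B2 and 0.0128% over the 7 without. For Nefm it was 0.118% with B2 and 0.0368% without, and for Nefh 0.0865% with B2 and 0.00582% without. For Stmn2 it was 0.0949% with B2 and 0.00782% without, and for Stmn3 0.150% with B2 and 0.0269% without. Prph and Tubb3 had 28 and 36 counts in all in the 10 corneas with B2 (0.102% and 0.0696% of TG), and 0 counts in the 7 without. A count of 0 there allows up to 3 counts in all, 0.0778 CPM, so Prph was at least 11612-fold lower and Tubb3 at least 22504-fold lower than in the TG libraries without B2.

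Other neuronal genes of the TG had like shares: with B2, Scn10a was at 0.0674% of TG, Calca at 0.0882% and Uchl1, a pan-neuronal gene, at 0.107%. Without B2, Scn10a and Calca had 0 counts, and Uchl1 was at 0.0242%. The reverse trace in TG, Krt12, was at 0.0673% of its corneal level with B2 and 0.000665% without. Whether these shares are RNA carried between libraries or RNA of the tissue was not tested. Map1b was also higher in cornea with B2, by a smaller factor and with overlapping ranges. It averaged 28.3 CPM with B2 (0.206% of TG) and 18.0 CPM without (0.141%). Mapt was not higher with B2, at 0.688% of TG with B2 and 0.796% without. Mapt was at 3.68 to 9.05 CPM in cornea with B2 and 5.08 to 8.30 CPM without.

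**Figure D4:**
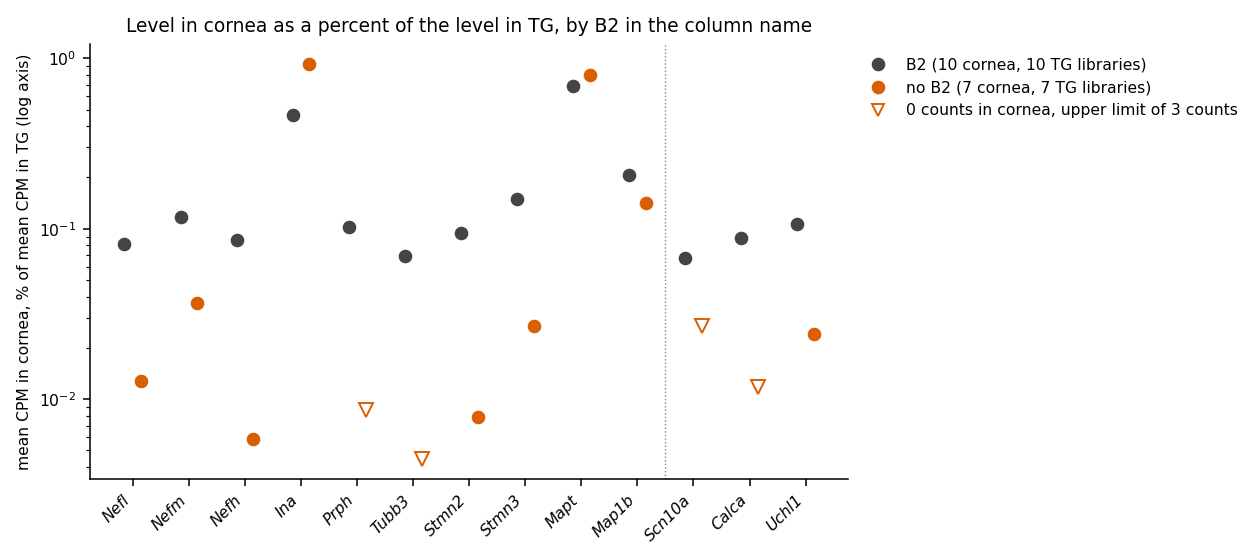
Mean CPM in cornea as a percent of mean CPM in TG on a log axis, for the 10 members and, right of the dotted line, 3 other TG genes, with grey for libraries with B2 and orange for those without. Triangles mark 0 counts in cornea, drawn at the limit of 3 counts. With B2, Nefl, Nefm, Nefh, Prph, Tubb3, Stmn2 and Stmn3 lie between 0.0696% and 0.150%, as do the other genes apart from Scn10a at 0.0674%, and Ina rests on 4 and 12 counts only.

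MS-strain WT cornea 1, a library without B2, stood apart. It had 52 counts of Nefm (11.02 CPM) and 19 of Nefl (4.03 CPM), against 0.40 to 2.28 CPM of Nefm in the other 6 corneas without B2, but 0 counts of Nefh and Tubb3. Its 6 lens and retina markers summed to 774 CPM, against 135 to 345 CPM in the other 16 corneas, and its 5 erythrocyte markers to 269 CPM. Without this library, the corneal share of Nefl was 0.00641% of TG and that of Nefm 0.0195%. The part of lens tissue or blood in these reads was not tested.

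Within the cornea genotype comparisons, 5 members were high enough to be tested in the SNS strain and 3 in the MS strain. None passed: 0 of 11463 genes did in the SNS strain (0%) and 0 of 11830 in the MS strain (0%), and DESeq2 called 0 in both. Map1b was at 25.3, 25.5 and 17.2 CPM in SNS-CKO corneas, against 32.8, 34.4, 32.5 and 34.1 CPM in SNS-strain WT corneas, a step of −0.58 on the log2 scale (SE 0.19, unadjusted p 0.00593, edgeR adjusted p 0.758). The groups did not overlap, as for 723 of 11463 genes (6.31%), and 715 genes had an unadjusted p under 0.05 (6.24%). In the MS strain Map1b was at 12.3 to 34.0 CPM in MS-CKO corneas and 11.8 to 31.99 CPM in MS-strain WT corneas.

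Of the others, Nefm averaged 9.93 ± 3.64 CPM in SNS-CKO corneas and 9.03 ± 2.55 CPM in SNS-strain WT corneas (SD). Mapt averaged 5.03 ± 1.34 CPM in SNS-CKO corneas and 6.33 ± 2.31 CPM in SNS-strain WT corneas. All SNS corneas have B2. Over corneas with B2, Nefm was at 0.118% of TG and Map1b at 0.206%, beside 0.0674% to 0.107% for Scn10a, Calca and Uchl1. The part of such traces in the genotype comparisons was not tested. Tubb3, whose protein is the corneal nerve marker, had 0, 3 and 3 counts in SNS-CKO corneas, against 1, 9, 5 and 3 in SNS-strain WT corneas. These counts are too few to read a difference in its mRNA, and the 7 corneas without B2 had 0. Within the MS strain Nefh was at 2.46, 2.61 and 4.29 CPM in corneas with B2, against 0 to 1.66 CPM in those without. It passed the filter on low counts only through the libraries with B2, in a comparison chosen after their traces were seen, so its call there (180 of 12562 genes were called higher, 1.43%) is given as a description, and it was lost in 8 of the 10 fits that left out 1 library.

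**Figure D5:**
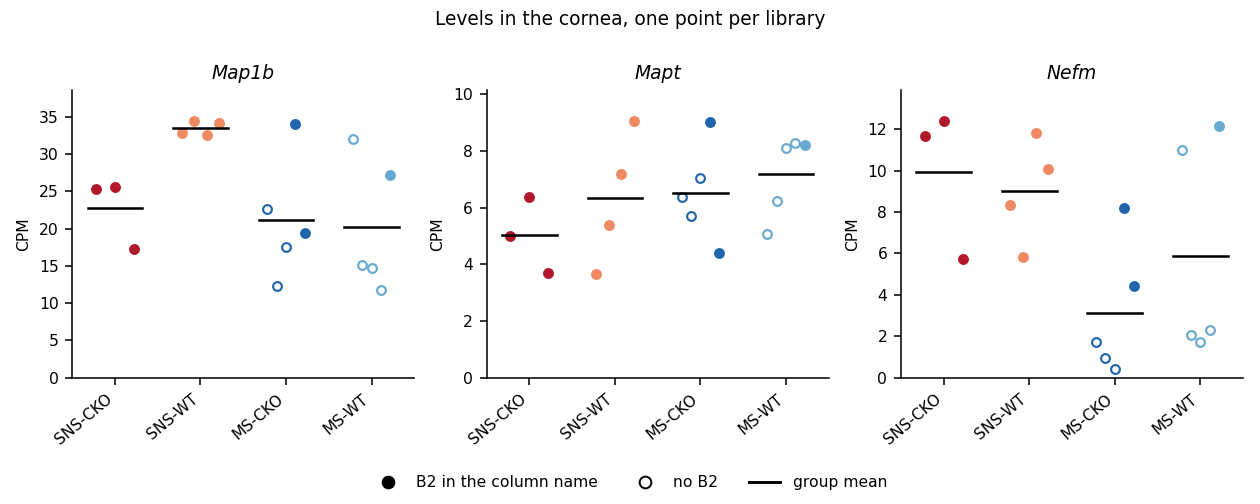
CPM of Map1b, Mapt and Nefm in each cornea library of the 4 groups, with filled points for B2 and a line at the group mean. Map1b lies at 17.2 to 25.5 CPM in SNS-CKO corneas and 32.5 to 34.4 CPM in SNS-strain WT corneas.

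In the 8 pools of sorted myeloid cells, of 2261266 to 10803867 counts, 74 of the 80 values of the members were 0, and Nefm, Nefh, Ina, Stmn2, Stmn3 and Mapt had no count in any pool. Map1b had 394 counts in the MS-CKO CRMC pool (36.5 CPM, exact Poisson 95% interval 33.0 to 40.3) and 4667 in the MS-strain WT CRMC pool (710 CPM, 690 to 731), but 0 in both CRMC pools of the KO strain. Tubb3 had 309 counts in the KO CRMC pool (73.3 CPM, 65.4 to 82.0) and 0 in the KO-strain WT CRMC pool, where 3 counts would be 1.33 CPM, and 8 in the KO spleen pool. Prph had 3 counts in the KO-strain WT CRMC pool and Nefl 1 in the MS-strain WT CRMC pool. With 1 library a group these differences have no replicate check, and the intervals cover counting error only.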

How the data were processed

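The count values were deposited as 1 table of whole-number counts per gene, which the authors made from 3′ mRNA-seq (QuantSeq FWD) reads aligned with STAR to mm10 and counted with HTSeq. Versions, annotation and strand setting were not given in the sources used here, and 42 columns of TG, cornea and sorted-cell libraries entered. Of the others, 11 KO-named columns equal an MS column in every row and were left out, and 1 column of values without a header was not used. The table has 27 gene names turned into dates and 2 symbols on several rows.

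CPM is the count over the library total. Comparisons used edgeR 4.0.16 (quasi-likelihood F test, TMM factors, filterByExpr, Benjamini-Hochberg adjustment over all genes tested, threshold 0.05), with the SE taken as the log2 change over the root of F. Strain effects were compared in 1 fit with an interaction contrast. Alternatives were RLE factors, DESeq2 1.42.0 without independent filtering, no filter on low counts, each library left out, the replicate number as a block, all 4 groups in 1 fit, B2 as a covariate or 1 B2 class only, another reading of the strain names, and CPM by TMM effective size. The scripts were tested on simulated data.

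The members and gene lists were chosen with earlier results of these data known. All members are named, of each list up to 3 genes with the smallest p, the 5 genes of at least 20 CPM most correlated with the triplet, and label checks. The B2 contrasts, the traces by B2 and the traces without 1 library were chosen after seeing the data. The ratios between members were not planned beforehand. Depth was 2934793 to 5387042 counts in TG, 2366126 to 6741290 in cornea and 2261266 to 10803867 in sorted cells. Intervals and limits cover counting error only.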

Additional observations from a re-analysis of the deposited data

Results flagged for a closer look

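In all, 3 values stood far from the rest of their group, where chance gives about 1 in 20 of the 41 groups examined. Nefh was at 1.27 CPM in SNS-strain WT cornea 3, on 3 counts, against 3.37 to 3.68 CPM in the other 3 corneas of that group. Prph was at 704 CPM in SNS-strain WT TG 1, against 784 to 795 CPM in the other 3. Stmn2 was at 1937 CPM in MS-strain WT TG 5, the only library of that group with B2 in its column name, against 1513 to 1601 CPM in the other 4.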

How the results depend on the processing

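No member was called in a genotype comparison under any alternative run. The MS-strain fits with B2 only set 2 MS-CKO libraries against 1 MS-strain WT library, which is assumed to vary like the others, so their counts say little. Genes called in TG SNS-CKO against SNS-strain WT (5) were 33 with no filter, 3 with all 4 groups in 1 fit, 0 under the other reading of the names and 2 to 11 without 1 library. In TG MS-CKO against MS-strain WT (0) they were 11 with no filter, 95 in libraries with B2 only and 1 under the other reading. In cornea they were 37 with no filter and 0 to 2 without 1 library for the SNS strain (0), and 27 with no filter and 4 with B2 only for the MS strain (0). The strain contrast of genotype effects (1) gave 4 by DESeq2, 18 with no filter, 3 with B2 as a covariate and 1 to 3 without 1 library.

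The replicate block gave 8 genes in TG and 1 in cornea for SNS-CKO against SNS-strain WT. Same-numbered libraries had correlations of −0.0843 to 0.18. They were not compared with pairs of other numbers, so whether the numbers pair the samples was not tested. The block changed no call of a member.

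In SNS-strain against MS-strain WT TG, members called (1) were 2 with RLE factors, 4 by DESeq2, 4 with no filter, 0 with B2 as a covariate and 0 to 7 without 1 library. Genes called (283) were 462 by DESeq2, 563 with no filter, 10 with B2 as a covariate and 44 to 1129 without 1 library. With that covariate the log2 change of Nefl was 0.16. For B2 against no B2 in TG, 4 to 6 members and 301 to 995 genes were called without 1 library. In cornea, members (1) were 3 by DESeq2, 3 with no filter and 0 to 2 without 1 library, and genes (378) were 674 by DESeq2, 690 with no filter and 155 to 381 without 1 library.

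Under the other reading of the names the log2 changes in TG SNS-CKO against SNS-strain WT turned to 0.0043 for Nefl, 0.041 for Nefm, 0.039 for Nefh, 0.0013 for Map1b and −0.0039 for Stmn3. In libraries with B2 only, r with the triplet was 0.69 for Csnk1e and Kifap3, −0.22 for Atp6ap1 and 0.76 for Prkacb. The cause of these changes was not tested. Levels by TMM effective size moved by less than the spread between libraries.

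The TG has 3 SNS-CKO libraries, which limits the size of change that can be called, and most members have few counts in cornea, where 5 and 3 of the 10 passed the filter on low counts. The strain and B2 are confounded in WT mice.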
